A study of Mus musculus with 6 samples.

Results

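Homer2, Pop4, Myo7a, Saxo2, Hddc3, Arnt2, A230056P14Rik and Gm35082 are 8 genes of mouse chromosome 7 whose RNA levels stood apart between SmadNes and control cells. They were found by symbol among the 52636 genes of the count table, and all 8 were among the 16869 genes that passed the filter on low counts, of which 1328 lie on chromosome 7. The genes were chosen from the genotype comparison itself, so their genotype differences are given as a description. RNA was sequenced from forebrain cells of mouse embryos at embryonic stage E12.5, sorted for the surface protein Prominin1 and labelled cortical radial glia. SmadNes cells were Smad1wt/fl and Smad5wt/fl, that is with 1 floxed and 1 wild-type copy of each gene, and carried Cre recombinase as Nestin:Cre+/0. Control cells were Smad1wt/fl and Smad5wt/fl too and had no Cre (Nestin:Cre0/0). There were 3 pools of cells per genotype, named SF3, SF4 and SF5_6 in both, on a mixed background of CD1, 129/ola and C57BL6. The number of embryos per pool is not stated in the labels. The presence of Cre and the recombination of the floxed copies go together in this design and cannot be told apart.

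Radial glia are the neural progenitors that line the ventricles of the embryonic brain and give rise to its neurons. Smad1 and Smad5 encode DNA-binding mediators of bone morphogenetic protein signalling, and the Nestin:Cre transgene drives recombination in neural progenitors. The 8 genes belong to no single pathway. Homer2 encodes a scaffold that links glutamate receptors to calcium channels, Myo7a a motor protein that moves on actin, and Saxo2 a protein of the family that stabilises axonemal microtubules. Pop4 encodes a protein subunit of ribonuclease P, which trims transfer RNA precursors, and Hddc3 a hydrolase whose human counterpart removes a phosphate from NADPH. Arnt2 encodes a transcription factor of the basic helix-loop-helix PAS family, known for its role in the neuroendocrine hypothalamus. A230056P14Rik and Gm35082 are noncoding transcripts, annotated as a processed transcript and a long intergenic noncoding RNA.

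On GRCm38 the genes followed each other along chromosome 7 in the order Pop4, A230056P14Rik, Hddc3, Homer2, Saxo2, Arnt2, Myo7a and Gm35082. Hddc3, Homer2, Saxo2 and Arnt2 followed each other with 1.26, 1.03 and 1.61 Mb between their starts. Myo7a and Gm35082 were 2.62 Mb apart, while Pop4 was 17.7 Mb from A230056P14Rik and A230056P14Rik 24.4 Mb from Hddc3. Promoter windows from RefSeq (GRCm38.p6), each 250 bases before to 50 after an annotated start, were found for 7 of the 8 genes and not for Saxo2. The 4 windows below are those of the genes with the most unequal levels, A230056P14Rik, Gm35082 and Myo7a, and of Homer2, the second of the genes that passed the blocked test described further on. Capitals mark matches, on either strand, to the letters GGCGCC or CAGAC, cores of the elements that Smad proteins bind.
A230056P14Rik (chr7:55962281-55962580, plus strand): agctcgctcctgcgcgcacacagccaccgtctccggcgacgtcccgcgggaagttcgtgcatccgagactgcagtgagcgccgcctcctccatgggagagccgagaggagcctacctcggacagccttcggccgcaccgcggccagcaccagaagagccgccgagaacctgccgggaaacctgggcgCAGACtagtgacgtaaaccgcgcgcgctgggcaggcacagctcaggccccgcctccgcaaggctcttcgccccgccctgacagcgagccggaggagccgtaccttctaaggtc
Gm35082 (chr7:100674757-100675056, plus strand): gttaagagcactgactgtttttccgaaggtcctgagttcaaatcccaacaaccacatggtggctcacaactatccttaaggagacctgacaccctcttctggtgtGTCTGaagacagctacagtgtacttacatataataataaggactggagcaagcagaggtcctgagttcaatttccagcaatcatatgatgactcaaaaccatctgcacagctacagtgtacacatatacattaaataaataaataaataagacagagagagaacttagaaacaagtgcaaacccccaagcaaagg
Myo7a (chr7:98119444-98119743, minus strand): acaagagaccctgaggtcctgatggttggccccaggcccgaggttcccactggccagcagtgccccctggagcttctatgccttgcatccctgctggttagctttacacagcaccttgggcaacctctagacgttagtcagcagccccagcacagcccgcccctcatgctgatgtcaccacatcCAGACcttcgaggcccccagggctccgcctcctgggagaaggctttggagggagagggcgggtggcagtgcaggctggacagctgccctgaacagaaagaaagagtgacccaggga
Homer2 (chr7:81706876-81707175, minus strand): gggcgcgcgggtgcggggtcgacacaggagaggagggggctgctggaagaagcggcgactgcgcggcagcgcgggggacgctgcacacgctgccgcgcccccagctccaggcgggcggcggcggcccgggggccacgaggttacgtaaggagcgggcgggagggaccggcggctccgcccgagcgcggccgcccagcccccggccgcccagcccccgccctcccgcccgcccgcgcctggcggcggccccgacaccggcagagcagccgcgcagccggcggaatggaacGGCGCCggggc

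The windows differed widely in composition. The Homer2 window had 82.3% G and C with 49 CpG dinucleotides and the A230056P14Rik window 69.3% with 35, against medians of 52.7% and 7 over the 32851 RefSeq windows. The Myo7a window had 62% with 6 CpG, and the Gm35082 window 41% with 1. RefSeq gives 2 windows for Homer2 and for Myo7a and 3 for Gm35082, and the first is shown. CAGAC or its reverse complement GTCTG was found in the windows of A230056P14Rik, Gm35082, Myo7a and Pop4 and in the second window of Homer2, and in 49.6% of all windows. GGCGCC, which reads the same on both strands, was found in the first window of Homer2 and that of Pop4 and in 11.9% of all windows, and the 2 motifs share no overlapping match here. Neither set of letters was found in the windows of Hddc3 or Arnt2. These are matches of letters and say nothing of binding.

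A230056P14Rik and Saxo2 each start back to back with a protein-coding gene on the opposite strand. The start of A230056P14Rik is separated by 54 bases from that of Nipa2, which encodes a magnesium transporter, and the start of Saxo2 by 85 bases from that of Efl1, which encodes a GTPase of ribosome maturation. Both stretches are shown on the plus strand from the outermost start base of one gene to that of the other, with these 2 bases in capitals, because the level of 1 gene of each pair is compared with the other's further on.
Nipa2 to A230056P14Rik (chr7:55962476-55962531, plus strand): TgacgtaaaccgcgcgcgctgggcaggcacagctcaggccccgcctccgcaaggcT
Saxo2 to Efl1 (chr7:82648528-82648614, plus strand): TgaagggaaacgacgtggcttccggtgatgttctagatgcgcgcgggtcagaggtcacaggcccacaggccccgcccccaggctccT

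The libraries held between 32997423 and 40744672 expected counts, so a count of 0 allows up to 3 counts, or 0.0744 to 0.091 counts per 1000000 (CPM), for counting error alone. The SmadNes libraries had more RNA of both targeted genes. Smad5 stood at 388, 411 and 373 CPM in SmadNes pools SF3, SF4 and SF5_6 and at 290, 300 and 287 CPM in control pools. Smad1 stood at 86.9, 92.9 and 85.7 CPM in SmadNes pools and at 72.7, 77.8 and 76.1 CPM in control pools. Neither group's values overlapped the other's, and since a whole-gene count does not separate floxed exons, these values do not check the deletion. All directions below rest on the labels. The 10 markers of radial glia summed to 1851 to 2182 CPM in SmadNes and 1737 to 2129 CPM in control libraries, and the 7 neuronal markers to 3294 to 3606 CPM in SmadNes and 3293 to 4098 CPM in control libraries, so neuronal transcripts were present among the sorted cells. Summed erythroid markers ran over 123 to 655 CPM in SmadNes and 116 to 1108 CPM in control libraries.

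Each of the 8 genes had SmadNes values that did not overlap the control values, 6 lower and 2 higher. Over all 16869 genes 4.77% did not overlap between genotypes. The median log2 difference, SmadNes minus control, was -0.41 over the 8 genes and 0 over all genes, where 8403 were higher and 8466 lower. These counts describe how the genes were chosen. In bulk RNA, fewer cells of a type and less RNA per cell cannot be told apart.

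**Figure D1:**
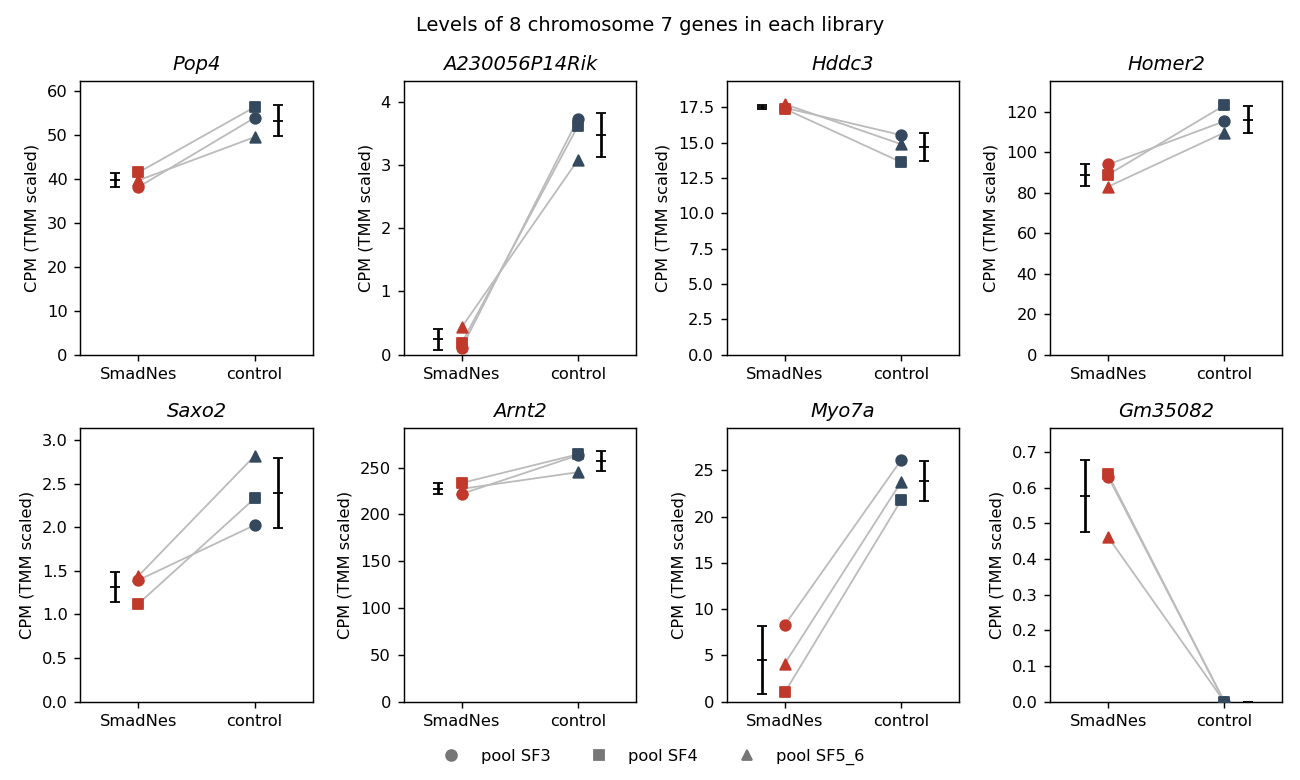
CPM (counts per 1000000, scaled by TMM) of each of the 8 genes in order along the chromosome, SmadNes left and control right, with 1 symbol per pool, lines joining pools of 1 name, and bars for mean ± SD (n = 3). In every panel the 3 SmadNes points lie on 1 side of the 3 control points, and in the Myo7a panel the SmadNes points spread from 1.03 to 8.31 CPM while the control points lie between 21.8 and 26.1 CPM.

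Homer2 (ENSMUSG00000025813.14, chr7:81600481-81707527, minus strand) stood at 93.9, 88.9 and 83.0 CPM in SmadNes pools SF3, SF4 and SF5_6 and at 115, 123 and 110 CPM in control pools. The highest SmadNes library lay below the lowest control library. The means were 88.6 ± 5.49 CPM in SmadNes and 116 ± 6.75 CPM in controls (SD, n = 3 each), so SmadNes had 76.3% of the control level. The log2 difference was -0.39 (SE 0.068). Homer2 did not pass edgeR's quasi-likelihood test (adjusted p = 1 over all genes), and it fell in the fit with the pool name as a block, which compares libraries of 1 name (adjusted p = 0.0453). All such p-values are adjusted by the Benjamini-Hochberg method. Within pools SF3, SF4 and SF5_6 the SmadNes library had 81.5%, 72.2% and 75.6% of its control.

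Pop4 (ENSMUSG00000030423.7, chr7:38261996-38271423, minus strand) stood at 38.2, 41.5 and 39.7 CPM in SmadNes and at 54.0, 56.5 and 49.6 CPM in controls. The SmadNes libraries lay close together and below every control. SmadNes averaged 39.8 ± 1.66 CPM and controls 53.4 ± 3.47 CPM, or 74.7% of the control level, with a log2 difference of -0.42 (SE 0.066). It did not pass edgeR's test (adjusted p = 1, and 0.0529 with the block).

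Arnt2 (ENSMUSG00000015709.9, chr7:84246278-84410176, minus strand) had the highest level of the 8 genes. Its values were 222, 233 and 227 CPM in SmadNes and 263, 264 and 245 CPM in controls. The SmadNes libraries lay below all controls, and the gap between the nearest libraries of the 2 genotypes was small. SmadNes averaged 228 ± 5.82 CPM and controls 257 ± 10.7 CPM, or 88.4% of the control level, with a log2 difference of -0.18 (SE 0.051) and adjusted p of 1 without and 0.381 with the block.

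Myo7a (ENSMUSG00000030761.15, chr7:98051060-98119524, minus strand) differed in how much its libraries scattered. It stood at 8.31, 1.03 and 4.13 CPM in SmadNes and at 26.1, 21.8 and 23.8 CPM in controls, from 316, 34 and 143 counts in SmadNes and 903, 878 and 809 in controls. SmadNes pool SF3 had the highest and pool SF4 the lowest SmadNes value, and both lay below every control. SmadNes averaged 4.49 ± 3.65 CPM and controls 23.9 ± 2.17 CPM, or 18.8% of the control level. The coefficient of variation was 81.4% in SmadNes and 9.1% in controls, where counting error alone would give 7.8% and 3.4%. Within the pools SmadNes had 31.8% (SF3), 4.74% (SF4) and 17.4% (SF5_6) of its control. The log2 difference was -2.40 (SE 0.629), with adjusted p of 1 without and 0.0944 with the block. Without SmadNes pool SF3 it was -3.21, and without SmadNes pool SF4 it was -1.94.

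Saxo2 (ENSMUSG00000038570.15, chr7:82632960-82648528, minus strand) had low values, 1.39, 1.12 and 1.44 CPM in SmadNes and 2.02, 2.33 and 2.82 CPM in controls. The counts behind them were 53, 37 and 50 in SmadNes and 70, 94 and 96 in controls. All SmadNes libraries lay below all controls, with the control pools spread over a wider range. SmadNes averaged 1.32 ± 0.172 CPM and controls 2.39 ± 0.401 CPM, or 55.2% of the control level. The log2 difference was -0.85 (SE 0.207), with adjusted p of 1 without and 0.397 with the block.

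Hddc3 (ENSMUSG00000030532.6, chr7:80343104-80350547, plus strand) was the protein-coding gene of the 8 with higher values in SmadNes. It stood at 17.5, 17.4 and 17.7 CPM in SmadNes and at 15.5, 13.6 and 14.9 CPM in controls. The SmadNes libraries were nearly equal, with a coefficient of variation of 0.987% where counting error alone would give 4.03%. SmadNes averaged 17.5 ± 0.173 CPM and controls 14.7 ± 0.974 CPM, 119% of the control level. The log2 difference was 0.26 (SE 0.077), with adjusted p of 1 without and 0.5 with the block.

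A230056P14Rik (ENSMUSG00000087178.7, chr7:55962531-55980868, plus strand) had 4, 6 and 15 counts in SmadNes and 129, 146 and 105 in controls. As CPM these were 0.105, 0.182 and 0.433 in SmadNes and 3.73, 3.62 and 3.08 in controls. Every SmadNes library was far below every control, and pool SF5_6 was the highest of the SmadNes libraries and the lowest of the controls. SmadNes averaged 0.24 ± 0.171 CPM and controls 3.48 ± 0.347 CPM, a 14.5-fold lower level. The log2 difference was -3.85 (SE 0.458). The gene did not pass edgeR's test (adjusted p = 0.965) and fell with the block (adjusted p = 0.012). Without SmadNes pool SF5_6 the log2 difference was -4.58. It passed the filter on low counts through the control libraries alone.

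Gm35082 (ENSMUSG00000108866.1, chr7:100675088-100677760, plus strand) showed the opposite pattern, with 24, 21 and 16 counts in SmadNes and 0 in every control library. The SmadNes levels were 0.631, 0.637 and 0.462 CPM. Set against the limit of 3 counts over the control group, 61 SmadNes counts gave a 20.8-fold higher level in SmadNes. The counting error of the 61 counts and the spread between pools do not enter this value, so it is not a lower bound. It did not pass edgeR's test (adjusted p = 1, and 0.118 with the block) and passed the filter on low counts through the SmadNes libraries alone.

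Levels were compared between genes as CPM per kilobase of annotated exon, averaged over the 6 libraries. On that scale Arnt2 stood at 31.5, Pop4 at 16.4, Homer2 at 8.11, Hddc3 at 4.27 and Myo7a at 1.66, followed by A230056P14Rik at 0.79, Gm35082 at 0.402 and Saxo2 at 0.388. Arnt2 lay at the 91.9th and Saxo2 at the 15th percentile of the tested genes. Gm35082 and Saxo2 were closer to each other than the 2 genotypes of either gene. The order changed with the genotype at the low end. In SmadNes Gm35082 stood at 0.803, Myo7a at 0.524, Saxo2 at 0.276 and A230056P14Rik at 0.102 CPM per kilobase, while in controls these were 0, 2.79, 0.5 and 1.48.

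How many of the genes passed depended on the fit. edgeR without the block called 0% of all genes and 0 of the 8. In that fit 177 genes had an unadjusted p below 0.05. With the block it called 0.0237%, which is 4 genes, of which A230056P14Rik and Homer2 were 2. DESeq2 called 0.0415%, or 7 genes, of which Pop4, A230056P14Rik, Homer2 and Gm35082 were 4, and with the block 0.0771%, or 13 genes, of which Pop4, A230056P14Rik and Homer2 were 3. The targeted gene Smad5 was among the calls of edgeR with the block (adjusted p = 0.00757) and of both DESeq2 fits. Smad1 was in none of these (adjusted p = 0.257 in edgeR with the block). All 8 genes had an unadjusted p below 0.05 in edgeR without the block, where 1.05% of all genes did, and with the block, where 6.23% did. In the blocked fit, A230056P14Rik and Homer2 were also called without any 1 pool, and so was Myo7a, with adjusted p of 0.0427 without SF3, 0.000225 without SF4 and 1.18e-06 without SF5_6. Pop4 and Gm35082 were called there without SF4 (adjusted p = 0.0313 and 0.0224) and without SF5_6 (0.000106 and 0.000135), and Arnt2 without SF5_6 (0.0415). Calls rose over all genes too in these smaller fits. They were 10 of 17055 genes without SF3, 48 of 17137 without SF4 and 149 of 16917 without SF5_6. The genes were chosen from this contrast, and the shares are not a result about them.

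Differences among the pools, which the genotype contrast does not measure, were tested in a model with both terms. Of all tested genes 28.8% differed among pools SF3, SF4 and SF5_6 at an adjusted p below 0.05, and 0 of the 8 did. The smallest adjusted p of the 8 was 0.137 for Homer2, followed by 0.187 for Myo7a and 0.281 for Pop4, and the largest was 0.971 for A230056P14Rik. Myo7a passed this test when control pool SF3, control pool SF4 or SmadNes pool SF5_6 was left out (adjusted p = 0.0187, 6.83e-06 and 0.0137). The fit from which the genes were chosen counted differences among pools as spread, so genes with small pool differences were more readily chosen. Mean levels of Arnt2, for example, were 242, 249 and 236 CPM in pools SF3, SF4 and SF5_6 over both genotypes, and those of Hddc3 were 16.5, 15.5 and 16.3 CPM.

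The genes next to the 8 were examined to see whether the differences extended along the chromosome. Nipa2 stood at 45.8, 49.9 and 48.5 CPM in SmadNes and at 44.1, 46.1 and 48.5 CPM in controls, with a log2 difference of 0.06 (SE 0.059). These groups overlapped, in contrast to those of A230056P14Rik, 54 bases away. Nipa1, a second magnesium transporter gene that overlaps A230056P14Rik on the opposite strand, stood at 16.8, 15.9 and 14.4 CPM in SmadNes and at 16.1, 15.0 and 14.3 CPM in controls, again overlapping. Libraries were stranded and counted by strand, per the labels, so the reads of these overlapping genes are counted apart.

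Efl1 stood at 21.2, 23.3 and 22.0 CPM in SmadNes and at 22.5, 22.9 and 22.6 CPM in controls, with a log2 difference of -0.04 (SE 0.064), while Saxo2 on the other strand did not overlap. Capn5, which encodes a calpain protease and lies 2034 bases from Myo7a, stood at 9.71, 8.16 and 9.29 CPM in SmadNes and at 12.9, 8.98 and 9.96 CPM in controls. It was lower in 3 of 3 pools, with overlapping groups and a log2 difference of -0.23 (SE 0.16). In edgeR with the block Capn5 had a log2 difference of -0.22 (SE 0.093, adjusted p = 0.782). On the other side of Myo7a, Pak1, a kinase gene, had a log2 difference of -0.08 (SE 0.064).

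Unc45a, a myosin chaperone gene 2098 bases from Hddc3, had a log2 difference of 0.06 (SE 0.064), and Man2a2, a mannosidase gene that overlaps the end of Hddc3 on the opposite strand, one of 0.05 (SE 0.045). Gm18310, an unconfirmed transcript inside Hddc3 on the opposite strand, stood at 0.421, 0.243 and 0.144 CPM in SmadNes and at 0.983, 0.372 and 0.734 CPM in controls. It was lower in 3 of 3 pools where Hddc3 was higher, its groups overlapped, and its log2 difference was -1.34 (SE 0.517). Around Homer2, Whamm and Fam103a1 had log2 differences of -0.13 and -0.01. Around Gm35082, Rab6a and Fam168a had differences of -0.02 and 0.01. Abhd17c and Fah beside Arnt2 had -0.01 and 0.25, and Plekhf1 beside Pop4 had 0.13. The groups overlapped for each gene named here as beside or across one of the 8, but overlap ignores the pairing by pool name. Besides Capn5 and Gm18310, Whamm was lower in 3 of 3 pools, and Nipa1, Man2a2 and Fah were higher in 3 of 3. Adamtsl3, 18509 bases from Saxo2 on the side away from Efl1, was also higher in 3 of 3, with overlapping groups. In edgeR with the block its log2 difference was 0.36 (SE 0.083, adjusted p = 0.397), opposite in sign to that of Saxo2. The rest were mixed, and none of these neighbours was called by edgeR with the block.

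**Figure D2:**
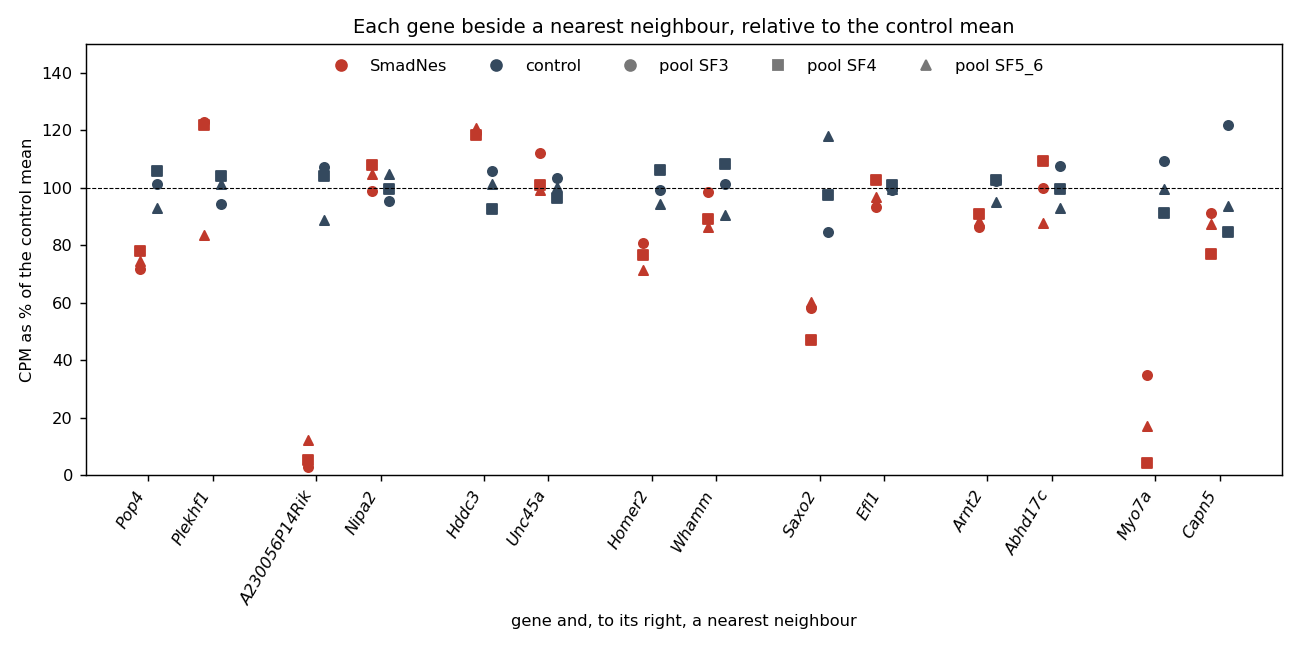
CPM of 7 of the genes, each with a nearest neighbour to its right, as a percentage of the gene's own control mean. Red points are SmadNes libraries and dark points, to their right, control libraries, with 1 symbol per pool and the dashed line at 100%. The SmadNes and control points of each neighbour overlap, while those of A230056P14Rik and Myo7a are far apart. Gm35082 is left out because its control counts are 0.

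Within 1 Mb of a member, 152 other genes were tested, of which 71 were higher and 81 lower in SmadNes, with a median absolute log2 difference of 0.085. Of these, 9 genes (5.92%) had an unadjusted p below 0.05 in edgeR, and 20 (13.2%) with the block. On the rest of chromosome 7 these were 18 of 1168 genes (1.54%) and 101 (8.65%). The windows differed in size, with 4 such genes among 50 around Hddc3, 2 among 26 around Homer2, 2 among 21 around Myo7a and 1 among 10 around A230056P14Rik. There were 1 among 29 around Gm35082 and 0 among 7 around Pop4, 16 around Saxo2 and 16 around Arnt2, where the blocked fit gave 0, 1 and 2. Among the 9, Arpin, an inhibitor of the Arp2/3 complex, stood at 14.4, 14.5 and 16.7 CPM in SmadNes and at 10.6, 11.3 and 13.2 CPM in controls, without overlap. Alg8, a gene of glycan assembly in the window around Myo7a, stood at 12.1, 11.1 and 12.0 CPM in SmadNes and at 13.1, 15.0 and 17.8 CPM in controls, also without overlap. Zfp592, between Hddc3 and Homer2, stood at 56.3, 55.4 and 52.2 CPM in SmadNes and at 62.6, 60.7 and 58.5 CPM in controls. In edgeR with the block these 3 did not pass, with adjusted p of 0.318, 0.435 and 0.5. Gm15506, a processed transcript in the window around Myo7a, was higher in SmadNes without overlap. It stood at 5.16, 5.19 and 6.18 CPM in SmadNes and at 4.25, 3.87 and 3.88 CPM in controls. Its adjusted p in edgeR with the block was 0.516.

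Chromosome 7 as a whole held a larger share of genes with small p than the other chromosomes. The 8 genes were chosen as genes of this chromosome from the same contrast, so the shares are a description. Leaving out the 8 does not undo that choice. Of its 1328 tested genes, 35 (2.64%) had an unadjusted p below 0.05 without the block, 12 higher and 23 lower, and 129 (9.71%) with it, 40 higher and 89 lower. With the 8 genes left out these were 27 of 1320 (2.05%) and 121 (9.17%), against 142 of 15541 (0.914%) and 922 (5.93%) for all other genes. The other 19 chromosomes ranged over 0.371% to 1.61% without the block and 3.67% to 7.12% with it. The share of genes whose genotypes did not overlap was 7.12% on chromosome 7 without the 8 genes and 4.52% among all other genes. The median log2 difference of chromosome 7 was -0.02.

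**Figure D3:**
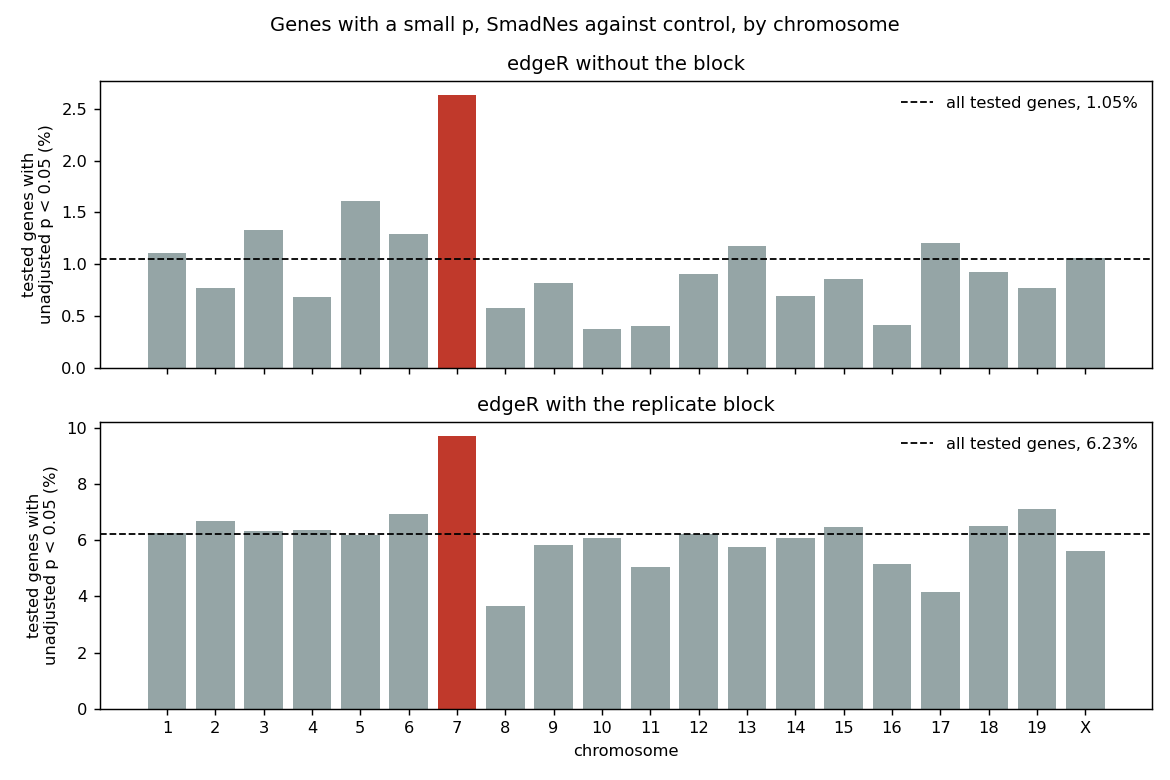
Percentage of tested genes on each chromosome with an unadjusted p below 0.05 for SmadNes against control, in edgeR without the block (top) and with it (bottom), with the dashed line at the share over all genes. The bar of chromosome 7 stands at 2.64% and 9.71%, above those of the other chromosomes in both panels.

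The small p-values were spread unevenly along chromosome 7. The stretch from 70 to 80 Mb held 5 such genes among 56 (8.93%), and that from 80 to 90 Mb, with Hddc3, Homer2, Saxo2 and Arnt2, 8 among 83 (9.64%). In the blocked fit they were 23.2% and 19.3%. Between 80 and 90 Mb, 4 of the small p-values belonged to the members named, which were chosen from this contrast. The stretch from 70 to 80 Mb held 0 members. The stretch from 90 to 100 Mb held 4 among 65 (6.15%), Myo7a included, and that from 100 to 110 Mb 4 among 97, Gm35082 included. That from 30 to 40 Mb held 4 among 103 (3.88%), Pop4 included, and that from 50 to 60 Mb 2 among 33 (6.06%), A230056P14Rik included. From 60 to 70 Mb there was 1 among 43, or 16.3% in the blocked fit. The outermost stretches, from 0 to 10 Mb and from 140 to 150 Mb, held 1 among 85 and 0 among 87, or 7.06% and 9.2% in the blocked fit. Genes higher and genes lower in SmadNes stood in the same stretches. With members included, 4 were higher and 1 lower between 70 and 80 Mb, and 2 higher and 6 lower between 80 and 90 Mb.

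**Figure D4:**
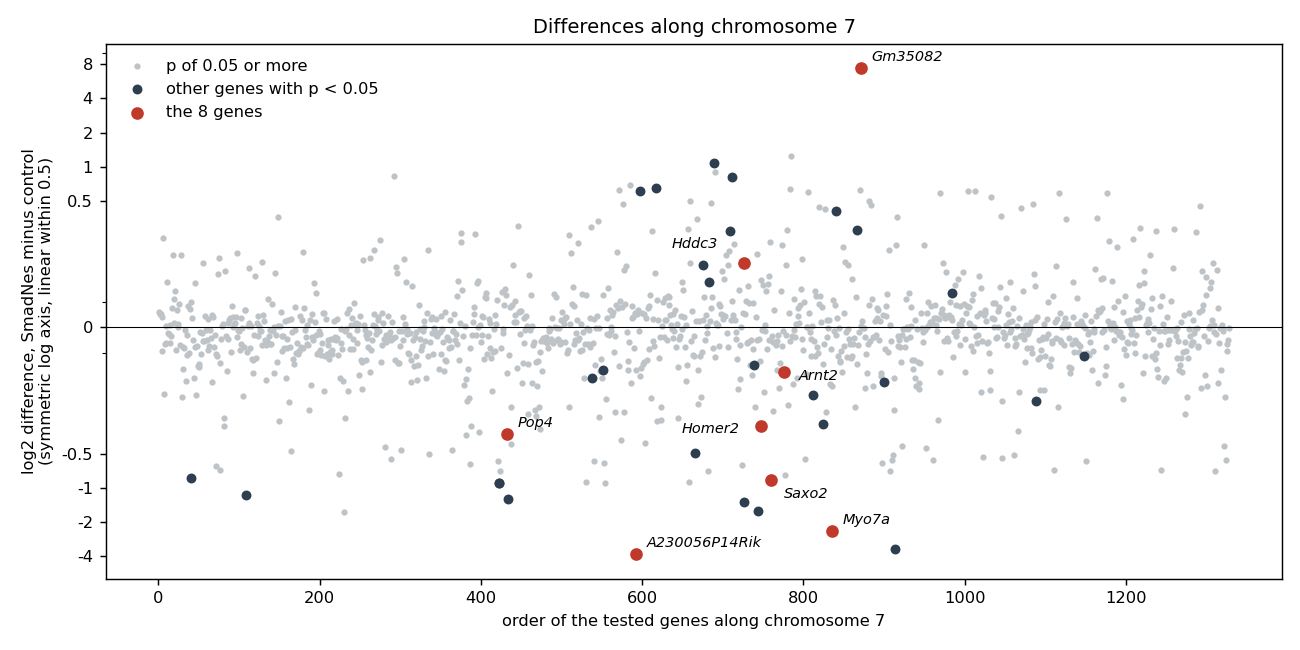
Log2 difference, SmadNes minus control, of the tested genes of chromosome 7 in their order along it, on a symmetric log axis. The 8 genes are red, other genes with an unadjusted p below 0.05 dark and the rest grey. The 8 are not at the ends of the chromosome, and their differences run from -3.85 for A230056P14Rik to 7.38 for Gm35082, whose size depends on the prior count because its controls are at 0.

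Ndn and Hbb-bt were the other chromosome 7 genes called by edgeR with the block or by DESeq2. Ndn, which encodes the growth suppressor necdin (chr7:62346569-62350262), stood at 192, 169 and 172 CPM in SmadNes and at 112, 103 and 122 CPM in controls, without overlap. It rose in the fit with the block (adjusted p = 0.00757). Hbb-bt, an adult beta-globin gene, was called by DESeq2 with the block alone and stood at 25.3, 9.25 and 16.1 CPM in SmadNes and at 35.9, 11.9 and 35.2 CPM in controls, with overlapping groups. The part of erythroid RNA in these results was not tested.

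Among the partners of Homer proteins (Homer1, Homer3 and the receptors, channels and scaffolds they bind), 12 of 12 tested genes had a negative log2 difference, with a median of -0.15. None passed in edgeR or DESeq2, with or without the block, 0 had groups that did not overlap, and 6 differed among pools. In edgeR without the block, no gene of this or the following lists had an unadjusted p below 0.05. Dnm3 stood at 11.0 ± 0.471 CPM in SmadNes and 12.9 ± 2.62 CPM in controls, and Ryr2 at 4.04 ± 0.306 CPM in SmadNes and 4.67 ± 0.61 CPM in controls. The groups of both overlapped, and the 12 include 4 genes of chromosome 7. Of the 7 neuronal markers, 3 were lower in SmadNes in 3 of 3 pools, Snap25, Mapt and Tubb3, with log2 differences of -0.19, -0.27 and -0.09, overlapping groups and adjusted p of 0.47, 0.435 and 0.75 with the block. The part of neuronal RNA in the values of this list was not tested.

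The other subunits of ribonuclease P and ribonuclease MRP, the partners of Pop4, gave 6 higher and 4 lower of 10 tested genes, with a median log2 difference of 0.04 and 0 called. Rpp21 stood at 5.12 ± 0.334 CPM in SmadNes and 5.85 ± 0.124 CPM in controls without overlap, while Rpp25 and Rpp30 overlapped. The groups of 2 of these genes did not overlap. The other was Rpp38, which was higher in SmadNes, at 4.55 ± 0.116 CPM against 4.12 ± 0.289 CPM in controls. The 10 tested genes of Myo7a's relatives and of Usher proteins, with which it works in hair cells, gave 3 higher and 7 lower, with a median of -0.09 and 0 called. Cdh23, a cadherin of the hair-cell tip link, stood at 1.30 ± 0.055 CPM in SmadNes and 1.11 ± 0.168 CPM in controls, higher without overlap. Cib2 and Pdzd7 had log2 differences of -0.21 and -0.16.

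The 12 tested relatives of Arnt2 gave 5 higher and 7 lower, with a median log2 difference of -0.03 and 0 called. Hif1a, the oxygen-regulated partner of Arnt proteins, stood at 226 ± 10.6 CPM in SmadNes and 215 ± 2.09 CPM in controls, while Npas2 and Epas1 had log2 differences of -0.93 and -0.27 with overlapping groups. Hddc2, a relative of Hddc3, stood at 12.9 ± 0.866 CPM in SmadNes and 12.3 ± 0.59 CPM in controls, and Saxo1 did not pass the filter on low counts.

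Markers of cell types that use Myo7a were set beside its values. The 7 markers of pigment epithelium and melanocytes summed to 32.8 to 53.9 CPM in SmadNes and 29.9 to 56.4 CPM in controls, with Tyr, a defining enzyme of pigment cells, at 0 in 5 of 6 libraries. The 5 markers of hair cells summed to 0.546 to 0.606 CPM in SmadNes and 0.675 to 0.839 CPM in controls, with none of them at 0 in all libraries. The 5 markers of motile ciliated cells, whose axonemes proteins of the Saxo family can bind, summed to 83.2 to 101 CPM in SmadNes and 70.5 to 147 CPM in controls. The 4 pigment and 5 ciliated markers that passed the filter on low counts were not called with or without the block, while the 5 hair-cell markers did not pass the filter and were not tested. The hair-cell sums did not overlap between genotypes, at few counts per library. Otof, the otoferlin gene, had 5, 3 and 7 counts in SmadNes and 16, 13 and 9 in controls, while Gfi1, a transcription factor gene, had 5, 3 and 6 in SmadNes and 2, 2 and 3 in controls. The part of these cell types in the Myo7a result was not tested.

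Some other genes followed the pattern of the genes across the 6 libraries, measured as Pearson's r of log2 CPM among all genes that averaged 1 CPM or more. Pgap2, on chromosome 7, was most like Myo7a (r = 0.987), followed by Fam189b (r = 0.972) and Timm17b (r = 0.968). Gm11839 (r = 0.975), E130006D01Rik (r = 0.969) and Spns1 (r = 0.968), the last also on chromosome 7, were most like Homer2. Stk32a (r = 0.976), Ryr3 (r = 0.972) and Zfp595 (r = 0.972) were most like A230056P14Rik. Smad5 was most like Gm35082 (r = 0.987), followed by Zbtb25 (r = 0.981) and Zbtb21 (r = 0.978). The libraries share the genotype split from which the 8 genes were chosen, and the 8 correlated with each other at r between -0.984 for A230056P14Rik with Gm35082 and 0.987 for Pop4 with Arnt2 on the same libraries.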

How the data were processed

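Sorted cells of 6 pools were measured by RNA-seq. Per the labels' protocols, the authors mapped stranded paired-end reads to GRCm38 with STAR 2.5.3a and estimated expected counts with RSEM 1.3.0 on GENCODE M15. DESeq2 1.18 is listed too, per the submitters' processing notes. The deposited expected counts were whole numbers that had not been scaled between libraries. RSEM shares out reads that match several places, so near-identical copies are uncertain.

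Columns were matched to samples by library name, and positions came from GENCODE M21 on the same build. Counts were tested with edgeR 4.0.16 in R 4.3.3 (genotype as the term, filterByExpr, TMM, quasi-likelihood F test), with Benjamini-Hochberg adjustment over 16869 genes and a call at an adjusted p below 0.05. Pool differences were tested with pool added to genotype. Libraries of 1 name deviated together from their group means (r = 0.493, 0.697 and 0.724, others at or below -0.0582), and the labels mention pairs, so names pair the samples. The blocked fit stayed an alternative, beside RLE scaling, no filter, DESeq2 1.42.0, limma-voom (3.58.1) and leaving out each library. Libraries of 1 genotype differed by more than sampling noise (chi-square per degree of freedom 10.6 to 43.9). Genotype p-values without the block are set against the spread between pools, and those with it against the spread left within pairs of 1 name. P-values of pool differences take the spread between pools as the effect. The fits were tested on simulated data, whose values are not reported here.

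The members and lists were chosen with earlier results of these data known. Beside the members, Ndn, Smad1 and Smad5, the genes named were the nearest tested gene on each side with a mean of at least 1 CPM, overlapping genes, up to 2 within 1 Mb with the smallest p, other chromosome 7 genes called, up to 3 per family list and the 3 most correlated genes for Homer2, Myo7a, A230056P14Rik and Gm35082. Some of these are given as counts only. One gene that the rule names is not reported here. Single genes of the marker lists, and Rpp38, were named after their values were seen.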

Additional observations from a re-analysis of the deposited data

How the results depend on the processing

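In edgeR without the block 0 genes were called, also without any 1 library (0 in each case), with RLE scaling and with no filter, while 177 had an unadjusted p below 0.05. The replicate block gave 4 calls, DESeq2 7, DESeq2 with the block 13, limma-voom 1 and limma-voom with the block 8. The blocked fit gave 10 to 149 calls when 1 pair of pools was left out (48 without SF4). The 35 chromosome 7 genes with a small p became 129 with the replicate block, 64 in DESeq2 with the block, 135 in limma-voom with the block, and 122 to 135 in the blocked fit without 1 pair (124 without SF4), against 25 to 42 without 1 library. The 4864 genes that differed among pools became 3161 by DESeq2's likelihood ratio test. The cause was not tested. Of 127 alternative genotype values of the 8 genes, 99 kept their side of the threshold, 28 passed it where the value with all libraries and no block did not, and 0 changed sign. The genes were chosen from this contrast and their groups did not overlap, so leaving out libraries could not change a sign. The kept signs are therefore no support for the differences. Of 87 alternative pool values 82 kept their side. DESeq2 with the block gave Gm35082 no adjusted p, and it is not among these. The 5 others were Homer2 with no filter (adjusted p = 0.0451) and Myo7a with no filter (6.04e-05) and without 3 of the libraries, given above. With 4 to 24 counts in their low or detected libraries, A230056P14Rik and Gm35082 are limited by depth.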

Other observations

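Trim12a, a chromosome 7 gene of the tripartite motif family chosen after its values were seen, also had few counts in SmadNes. It stood at 0.132, 0 and 0 CPM in SmadNes pools SF3, SF4 and SF5_6 and at 0.55, 0.521 and 0.558 CPM in control pools, from 19, 21 and 19 control counts. The groups did not overlap, the log2 difference was -3.44 (SE 0.855), and the adjusted p of edgeR was 1. Trim12a has close paralogs, so its counts are uncertain. Nlrp5-ps, a pseudogene of chromosome 7 also chosen after its values were seen, stood at 0.5, 0.759 and 0.519 CPM in SmadNes and at 1.1, 1.66 and 1.2 CPM in controls, again without overlap and with an adjusted p of 1.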
